A study of Homo sapiens with 2 samples.

Results

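Kinesins are motor proteins that walk along microtubules with energy from ATP. The kinesin genes were examined in H1299 cells, a line from a human lung carcinoma of the non-small cell type, given 5 mM metformin, with untreated cells as the control. Metformin is a biguanide drug of type 2 diabetes known to act on mitochondrial respiration at complex I. Each condition was 1 RNA sequencing library, and the duration of treatment was not given in the sources used here. The members were all protein-coding genes whose symbol is KIF with a digit, with KIFC1, KIFC2, KIFC3, KIFBP and the light chain genes KLC1, KLC2 and KLC4. That gave 46 of the 27685 gene IDs in the deposited tables. They were divided by their known work in the cell into 14 mitotic kinesins, 18 cargo kinesins with their light chains, and 14 others (motors of cilia, of microtubule growth or of unsettled role, and the kinesin inhibitor KIFBP).

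Levels are in TPM, a transcript abundance corrected for transcript length and scaled to a fixed total per library. A difference is log2(TPM + 1) in metformin minus that in control. A gene was measured if it reached 1 TPM in at least 1 library, which held for 14078 genes and for 38 of the 46 members. The metformin library held about 31.7 M read pairs and the control library about 28.7 M. With 1 library a condition there was no replicate check and no test, and the 95% intervals beside ratios cover the counting of reads only. The keratin genes KRT8 and KRT18 and the intermediate filament gene VIM, from a short list of markers for this line, were listed between 269 and 4962 TPM. The epithelial adhesion gene EPCAM was below 1 TPM in both libraries, and so were PTPRC, CD3E, PECAM1 and COL1A1, markers of blood, vessel and connective tissue cells.

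In a dividing cell, kinesins build the spindle, move chromosomes and close the cell at cytokinesis. Their transcripts are known to peak in the G2 and M phases of the cell cycle. Between divisions other kinesins carry vesicles, mitochondria, lysosomes and RNA along microtubules, mostly towards the cell edge, and kinesin light chains join the kinesin-1 motor to its load.

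The mitotic kinesins were lower in the metformin library, and the cargo kinesins lay on both sides of control. All 12 measured mitotic members were below 0, with a median log2 difference of -0.83, which corresponds to 0.561 of control. Of the 18 cargo members, all measured, 11 lay above 0 and 7 below, with a median of 0.07. Over all 14078 measured genes the median was -0.08, with 59.7% below 0 and 40.3% above. The medians of the mitotic and cargo classes differed by -0.91. The classes did not overlap: KIF22, the mitotic member nearest to control, had a difference of -0.30, and KIF3B, the lowest cargo member, -0.27. The gap between these members is narrow, and with the trend over GC content and transcript length taken out 2 cargo members, KIFC3 and KIF13B, lay below the highest mitotic member, KIF4A. KIF2A also works in mitosis, and with it in the mitotic class 5 cargo members lay below the highest mitotic value.

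Counted by size, 10 members were lower by 1.5-fold or more and 1 was higher. Of the 10, 9 were mitotic kinesins, out of 12 measured, and none were cargo kinesins. Among all measured genes, 7.03% were lower by 1.5-fold and 5.4% higher. Past 2-fold there were 2 members, KIF11 and KIF20B, both lower, where 1.24% of all measured genes were lower by that much and 1.51% higher. Both lay close to the 2-fold limit, and with FPKM in place of TPM or with trimmed mean scaling only 1 member passed it. None passed it after centring on the median gene or with the GC and length trend taken out. With trimmed mean scaling 8 members were lower by 1.5-fold and 4 higher, the 4 being KIFC2, KIF7, KLC1 and KIF1A. The mitotic members KIF23, at -0.54, and KIFC1, at -0.52, then fell short of the lower limit. With the GC and length trend taken out 8 members were lower by 1.5-fold, and KIF18A, at -0.56, and KIF23, at -0.49, fell short.

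Summed over all 46 genes, kinesin transcripts came to 1693 TPM in metformin and 2038 in control. The mitotic class made up 725 TPM in metformin and 1146 in control, or 42.9% and 56.2% of all kinesin TPM in these libraries. For the cargo class the sum was 785 TPM in metformin and 694 in control. The others summed to 182 TPM in metformin and 198 in control. The cargo motors without the light chains summed to 453 TPM in metformin and 458 in control, below the mitotic sum in both libraries. The larger cargo sum in metformin therefore came with the light chains, KLC1 above all.

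**Figure D1:**
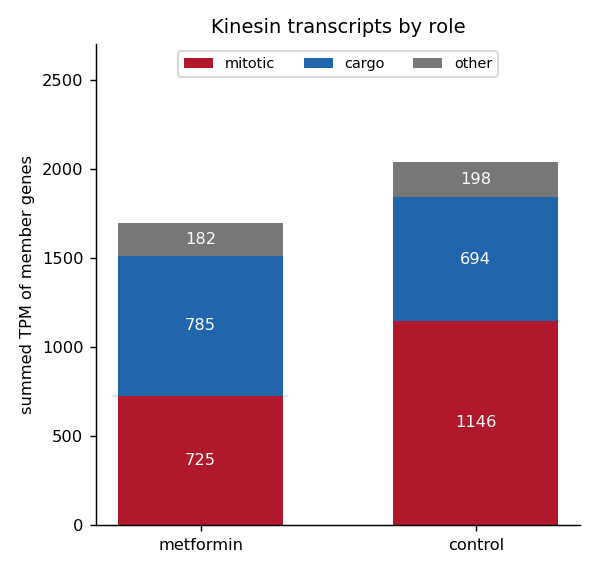
Summed TPM of the 14 mitotic, 18 cargo and 14 other kinesin genes in the metformin library (left bar) and the control library (right bar), 1 library each. The mitotic part is 725 TPM in metformin and 1146 in control, and the cargo part 785 and 694.

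Among the motors that build the bipolar spindle, KIF11 had the lowest ratio. KIF11, also called Eg5 or kinesin-5, pushes the spindle poles apart. It was listed at 41.0 TPM in metformin and 87.6 in control, a ratio of 0.468 (95% counting interval 0.447 to 0.490). KIF11 lies on chromosome 10 at 94352825 to 94415152 of hg19, plus strand. Its rank by level among the 46 members was 15 in metformin and 9 in control. KIF15, which can stand in for KIF11 in keeping poles apart, was listed at 16.2 TPM in metformin and 30.6 in control, a ratio of 0.530. KIFC1, a minus-end motor that pulls inward and clusters extra centrosomes, was listed at 92.0 TPM in metformin and 139 in control, a ratio of 0.660 (0.629 to 0.692). KIFC1 transcripts exceeded those of its opponent KIF11 by 2.24-fold in metformin and 1.59-fold in control. TPX2, a spindle assembly factor that binds KIF11 and KIF15, stood at 0.656 of control.

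Motors of the chromosomes and of microtubule ends were lower to unequal degrees. KIF18A and KIF18B, both of kinesin-8, dampen chromosome oscillation and shorten astral microtubules. KIF18A was listed at 26.1 TPM in metformin and 47.1 in control, and KIF18B at 43.7 in metformin and 78.9 in control. The ratios were 0.555 for KIF18A and 0.554 for KIF18B, and their intervals overlapped. With the GC and length trend taken out the ratios moved apart, to 0.668 for KIF18A and 0.515 for KIF18B. KIF2C, known as MCAK, takes apart microtubules to correct faulty kinetochore attachments, and was listed at 99.9 TPM in metformin and 146 in control, a ratio of 0.682 (0.654 to 0.712). KIF4A and KIF22 are chromokinesins, which bind chromatin and push chromosome arms. KIF4A was listed at 82.6 TPM in metformin and 107 in control, a ratio of 0.775 (0.746 to 0.806). KIF22 was listed at 116 TPM in metformin and 143 in control, a ratio of 0.813 (0.775 to 0.852). These chromokinesins were the mitotic members nearest to control, and their intervals do not reach those of the other 10.

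The motors of cytokinesis had ratios between 0.468 and 0.648. KIF20A, which brings the chromosomal passenger complex to the midzone, was listed at 73.6 TPM in metformin and 142 in control, a ratio of 0.518 (0.496 to 0.541). KIF20B, needed for abscission, was listed at 19.4 TPM in metformin and 41.5 in control, a ratio of 0.468 (0.441 to 0.496). KIF20B lies on chromosome 10 at 91461347 to 91534700 of hg19, plus strand. KIF14, which recruits citron kinase to the midbody, was the mitotic member of lowest level among the measured ones, at 13.2 TPM in metformin and 26.0 in control, a ratio of 0.510. KIF23, also called MKLP1, was the mitotic member of highest level in control, with 102 TPM in metformin and 157 in control. Its ratio was 0.648 (0.625 to 0.672), above the intervals of KIF20A and KIF20B. KIF23 and RACGAP1 form the centralspindlin complex, and RACGAP1 was listed at 82.5 TPM in metformin and 183 in control, a ratio of 0.450 (0.432 to 0.468). The pair of centralspindlin genes thus stood at unequal ratios.

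A pair of mitotic genes was not measured. KIF2B was listed at 0 in both libraries. KIF4B, a retrogene copied from KIF4A, was listed at 0.0505 TPM in metformin and 0.0275 in control, and with a near-identical parent gene its reads are uncertain. CENPE, the kinetochore motor of kinesin-7, is a kinesin that the symbol rule does not take in. CENPE was listed at 24.7 TPM in metformin and 47.8 in control, a ratio of 0.518 (0.494 to 0.542), inside the range of the mitotic members.

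**Figure D2:**
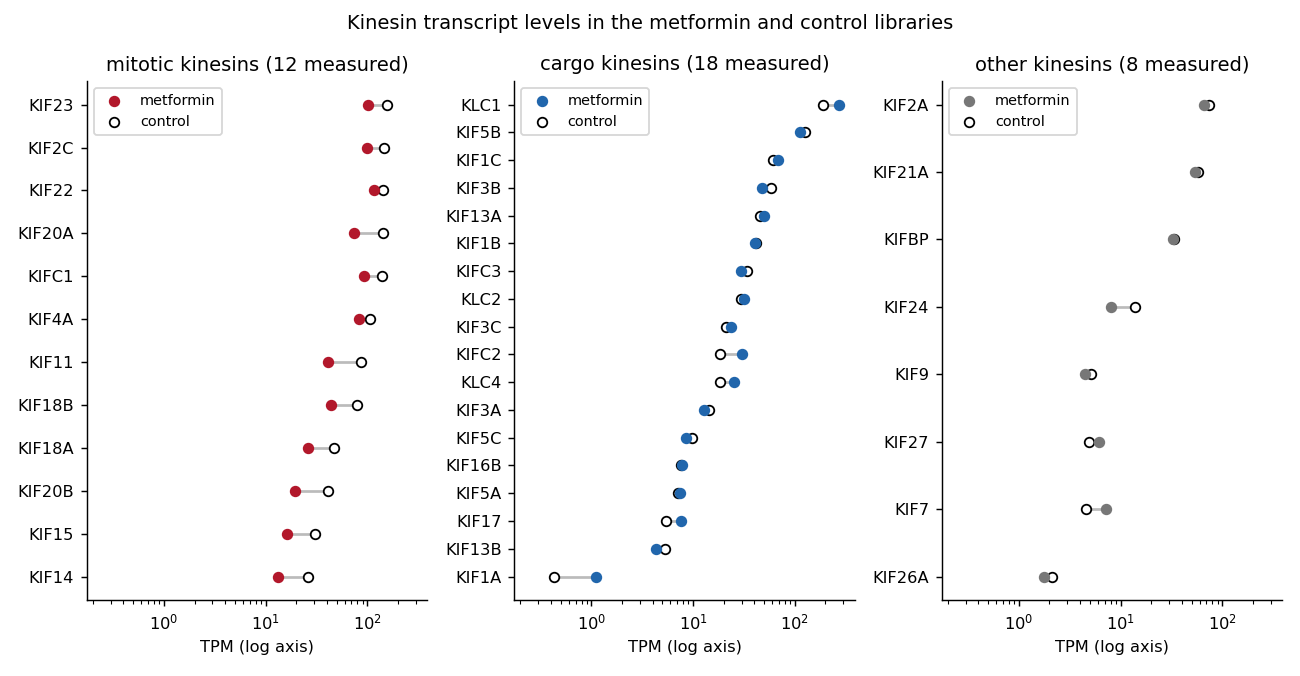
TPM of each measured kinesin gene on a log axis in the metformin library (filled) and the control library (open), by role, ordered by control level. All 12 mitotic genes have the filled point to the left of the open one, while of the cargo genes 11 have it to the right and 7 to the left.

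Proliferation markers lay lower beside the mitotic class. All 6 listed markers were lower by 1.5-fold or more, with a median difference of -0.83. MKI67, which encodes Ki-67, stood at 0.506 of control, CCNB1, which encodes cyclin B1, at 0.601, and PCNA, the sliding clamp of DNA replication, at 0.638. In bulk RNA, fewer cells in G2 and M phase and less transcript per such cell cannot be told apart, and the part of these markers in the result was not tested. Partners of the mitotic motors, a list chosen with earlier results of these data known, were below 0 in 20 of 20 genes. Their median was -0.66. Of these 20, 12 were lower by 1.5-fold or more. After RACGAP1 the lowest was HMMR, a spindle protein, at 0.474 of control. PLK1, a mitotic kinase that binds KIF20A, stood at 0.520, PRC1, a microtubule bundler that binds KIF4A, at 0.692, and CIT, the citron kinase that binds KIF14, at 0.805. NUMA1, which anchors microtubules at spindle poles, and CLASP1, which stabilises microtubule ends, were nearest to control, at 0.931 and 0.919.

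Promoters of the mitotic kinesins are shown since these genes lay below control together. In the promoters of many G2 and M phase genes, the cell cycle genes homology region is known to bind the MuvB complex, and CCAAT boxes bind the factor NF-Y. RefSeq promoter windows (GRCh38.p14, 250 bases before to 50 after the start) matched all 14 mitotic, 12 of 18 cargo and 10 of 14 other members by gene ID. Both strands were searched for TTTGAA and TTCGAA, the core of that region, and for CCAAT. Each window below runs 5′ to 3′ on the gene's strand and ends at the base before the annotated start. Capitals mark a match, with TTCAAA and ATTGG being TTTGAA and CCAAT on the other strand, and no marked matches overlap.
KIF11 (chr10:92593030-92593129, plus): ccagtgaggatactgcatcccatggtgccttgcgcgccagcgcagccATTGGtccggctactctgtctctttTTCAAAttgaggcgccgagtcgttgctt
KIF18A (chr11:28108157-28108256, minus): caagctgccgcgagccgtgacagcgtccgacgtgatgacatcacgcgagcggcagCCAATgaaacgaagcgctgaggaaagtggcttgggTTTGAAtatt
KIF23 (chr15:69414249-69414348, plus): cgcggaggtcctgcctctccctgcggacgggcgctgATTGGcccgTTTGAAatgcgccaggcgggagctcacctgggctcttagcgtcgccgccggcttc
KIF4A (chrX:70290004-70290103, plus): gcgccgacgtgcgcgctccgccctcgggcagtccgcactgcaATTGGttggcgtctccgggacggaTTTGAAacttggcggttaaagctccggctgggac
KIF22 (chr16:29790651-29790750, plus): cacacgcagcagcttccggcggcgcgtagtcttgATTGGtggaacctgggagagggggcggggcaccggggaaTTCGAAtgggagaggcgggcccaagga
KIF20A (chr5:138179012-138179111, plus): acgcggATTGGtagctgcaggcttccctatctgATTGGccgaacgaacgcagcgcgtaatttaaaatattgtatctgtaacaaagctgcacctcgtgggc
KIF5B, a cargo motor (chr10:32056426-32056575, minus): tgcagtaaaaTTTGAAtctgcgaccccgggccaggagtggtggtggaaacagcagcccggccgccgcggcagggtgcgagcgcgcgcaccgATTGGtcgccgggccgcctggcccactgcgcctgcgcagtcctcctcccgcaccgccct

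The first 5 of these windows hold a CCAAT and a homology region core within 100 bases of the start, the arrangement that many mitotic genes share. The KIF20A window holds a pair of CCAAT matches and no core, and the KIF5B window holds its core farther out, at -140 to -135 from the start, with CCAAT at -59 to -55. Over whole windows, TTTGAA or TTCGAA was found in 11 of 14 mitotic members, 1 of 12 cargo members and 1 of 10 others, against 13.5% of 15843 protein-coding promoters. That single cargo gene was KIF5B, and the gene among the others was KIF24. CCAAT was found in 11 of 14 mitotic members, 3 of 12 cargo members and 4 of 10 others, against 36.4% of all. Both together were found in 10 of 14 mitotic members, 1 of 12 cargo members, 1 of 10 others and 5.57% of all promoters. The mitotic members without a core match were KIF20A, KIF2C and KIF2B. KIF22, nearest to control, and KIF11, the lowest, both hold the pair of elements, as do 9 of the 12 measured mitotic members in all. The measured mitotic members without the pair were KIF20A at -0.94, KIF15 at -0.88 and KIF2C at -0.55. A link between the matches and the size of the difference was not tested. With the GC and length trend taken out, KIF4A was nearest to control at -0.32 and KIF18B the lowest at -0.94. Both of these hold the pair as well. A match of letters is a description of the reference sequence and does not show that a factor binds.

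**Figure D3:**
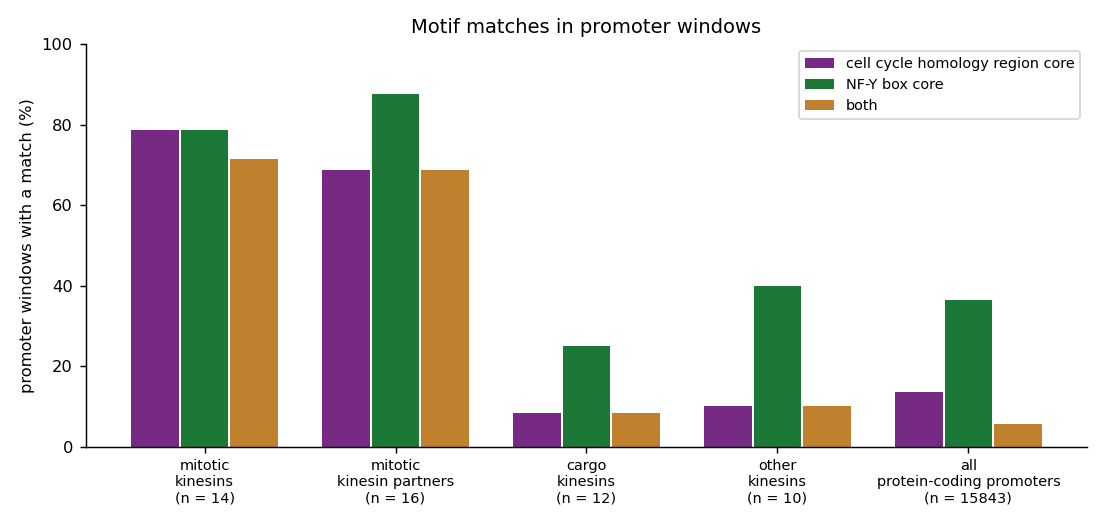
Percent of RefSeq promoter windows with a match to the cell cycle genes homology region core, to the NF-Y box core, or to both, in mitotic kinesins, their partners, cargo kinesins, other kinesins and all protein-coding genes with a window. The core was found in 78.6% of mitotic, 8.33% of cargo and 13.5% of all windows.

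In kinesin-1, the main motor for outward transport, the light chain genes KLC1 and KLC4 were higher in metformin and the main heavy chain gene KIF5B was not. KLC1, the light chain gene of highest level and the most abundant member of all 46 in both libraries, was listed at 275 TPM in metformin and 189 in control. Its ratio was 1.46 (1.41 to 1.51), and it lies on chromosome 14 at 104095525 to 104167888 of hg19, plus strand. KLC4 was listed at 25.3 TPM in metformin and 18.3 in control, a ratio of 1.38 (1.24 to 1.55). KLC2 was listed at 31.6 TPM in metformin and 29.3 in control, a ratio of 1.08 with an interval from 0.992 to 1.17. KIF5B, the kinesin-1 heavy chain found in most tissues, was listed at 113 TPM in metformin and 127 in control, a ratio of 0.888 (0.863 to 0.915) that came to 1.002 without the GC and length trend. KIF5A and KIF5C, known mainly from neurons, were below 10 TPM in both libraries, with ratios of 1.03 and 0.875. Without that trend the ratios of KLC1, KLC2 and KLC4 were 1.40, 0.973 and 1.29. The summed TPM of KLC1, KLC2 and KLC4 over that of KIF5A, KIF5B and KIF5C was 2.58 in metformin and 1.64 in control, with the trend left in. KLC3, a light chain gene outside the symbol rule and not in the sum, was listed at 3.95 TPM in metformin and 3.77 in control. Exons of KLC1 overlap those of the repair gene XRCC3 on the other strand by 52 bases. They also share 64.7% of the KLC1 transcript with a read-through model of GENCODE that the deposited tables do not list.

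Kinesin-2, the motor of cilia and of vesicle transport, was mixed. KIF3B was listed at 48.1 TPM in metformin and 58.2 in control, a ratio of 0.827 (0.792 to 0.864). Its partner KIF3A was listed at 12.8 TPM in metformin and 14.3 in control, a ratio of 0.892 that turned to 1.03 without the GC and length trend. KIF3C, the alternative partner of KIF3A, was listed at 23.9 TPM in metformin and 21.2 in control, a ratio of 1.12 (1.05 to 1.21). KIF17, a homodimeric motor of dendrites and cilia, was listed at 7.64 TPM in metformin and 5.37 in control, a ratio of 1.42 (1.22 to 1.67). KIFAP3, which joins the KIF3 motor to cargo and lies outside the symbol rule, stood at 1.05 of control with an interval that included 1.

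Of the kinesin-3 motors of vesicle transport, KIF1C, KIF13A, KIF1B and KIF16B lay near control. KIF1C, which carries vesicles and mRNA, was listed at 68.0 TPM in metformin and 61.8 in control, a ratio of 1.100 (1.06 to 1.14). KIF13A, which positions recycling endosomes, was listed at 49.4 TPM in metformin and 45.4 in control, a ratio of 1.09 (1.04 to 1.14). For KIF1B, a motor of mitochondria and synaptic vesicle precursors, the values were 40.9 TPM in metformin and 41.9 in control, and for KIF16B, an endosome motor, 7.81 in metformin and 7.66 in control. The intervals of both ratios included 1. KIF13B was listed at 4.37 TPM in metformin and 5.29 in control, a ratio of 0.827 (0.733 to 0.933). KIF1A, a motor of neuronal vesicles, was listed at 1.12 TPM in metformin and 0.431 in control, so it counted as measured only through metformin. Its ratio of 2.60 rested on few reads, with an interval from 1.86 to 3.69. Without KIF1A the median of the cargo class was 0.04.

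Of the minus-end motors outside mitosis, KIFC2 was the highest of all members on the scale of log2(TPM + 1), at 0.67. It was listed at 29.99 TPM in metformin and 18.4 in control, a ratio of 1.63 (1.49 to 1.78). This was the single member past 1.5-fold in the upward direction. With the GC and length trend taken out its difference was 0.49, below that limit. The KIFC2 transcript overlaps FOXH1 on the other strand over 24.2% of its length, and FOXH1 was listed at 0.273 TPM in metformin and 0.456 in control. KIFC3, a motor of apical transport and cell junctions, was listed at 29.8 TPM in metformin and 34.0 in control, a ratio of 0.876 (0.812 to 0.944).

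By family, several kinesin groups of close kin divided by role. In kinesin-3, KIF14 had a difference of -0.92, and the 5 cargo members that reached 1 TPM in control lay between -0.23 and 0.14. In kinesin-14, KIFC1 was at -0.59, with KIFC3 at -0.19 and KIFC2 at 0.67. In kinesin-4, KIF4A was at -0.36, KIF21A at -0.09, KIF27 at 0.29 and KIF7 at 0.56. In kinesin-13, KIF2C was at -0.55 and KIF2A at -0.16, but KIF24, which is not a spindle motor, was at -0.73, below KIF2C.

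**Figure D4:**
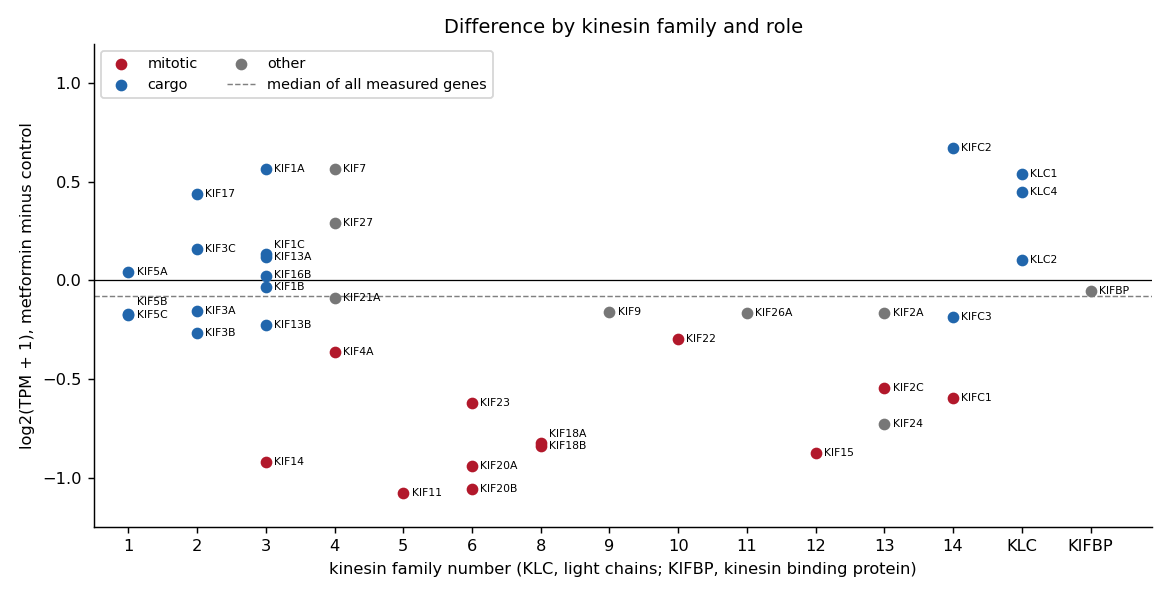
Difference of log2(TPM + 1), metformin minus control, of each measured kinesin gene by family number, coloured by role, with the median of all measured genes dashed. Mitotic members of families 3, 4 and 14 lie below the rest of their family, and in family 13 KIF24 lies below the mitotic KIF2C.

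Among the other 14 members, 8 were measured. KIF24, which acts at centrioles and restrains cilium formation, was listed at 8.04 TPM in metformin and 14.01 in control, a ratio of 0.574 (0.521 to 0.632). It was the single gene of this class lower by 1.5-fold. KIF7, a regulator of Hedgehog signalling at the cilium tip, was listed at 7.20 TPM in metformin and 4.54 in control, a ratio of 1.58 (1.36 to 1.86). On the scale of log2(TPM + 1) its difference of 0.56 stayed just inside the limit for 1.5-fold, and exons of TICRR on the other strand overlap 8.71% of its transcript. KIF27, a relative of KIF7, was listed at 6.19 TPM in metformin and 4.88 in control, a ratio of 1.27 (1.12 to 1.44).

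KIF2A, a microtubule-depolymerising kinesin of neurons and spindle poles, was listed at 66.4 TPM in metformin and 74.5 in control. Its ratio of 0.891 (0.862 to 0.921) turned to 1.02 without the GC and length trend, and exons of DIMT1 on the other strand overlap 27.2% of its transcript. KIF21A, which halts microtubule growth at the cell cortex, was listed at 54.6 TPM in metformin and 58.0 in control, a ratio of 0.941 that turned to 1.03 without that trend. KIFBP, a protein that binds motor domains and blocks them from microtubules, was listed at 32.6 TPM in metformin and 33.8 in control. KIF9 had 4.49 TPM in metformin and 5.14 in control, and KIF26A had 1.77 in metformin and 2.10 in control. The intervals of KIFBP, KIF9 and KIF26A included 1. The 6 members of this class not measured were KIF6, KIF12, KIF19, KIF21B, KIF25 and KIF26B. The highest of these was KIF21B, at 0.689 TPM in metformin and 0.629 in control.

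Counting error alone was small against the mitotic differences. The intervals of all 12 measured mitotic members lay below 1. Of the 17 cargo members with an interval, 5 lay below 1, 8 above, and 4 included 1. At this depth many genes had such an interval: of 13163 measured genes with one, 42.6% lay below 1 and 24.3% above. KIF5C had no interval, since no transcript length was matched to it. Variation between cultures is not in these intervals.

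Across genes, transcripts of low GC content tended to have lower differences. Median GC content was 43.9% for the mitotic and 54.6% for the cargo members. Within the mitotic class, Pearson's r between difference and GC content was 0.59 over 12 genes (Spearman 0.58), and within the cargo class 0.59 over 17 genes with a transcript (Spearman 0.53). Across 13185 measured genes r was 0.31 (Spearman 0.35), and genes share the libraries and are not independent replicates. The GC range of the mitotic members, 34.3% to 58.4%, held 10404 other genes, most of the 13185. Those genes had a median difference of -0.12, and they were not matched to the mitotic class in GC content. With the trend over GC content and length removed, the mitotic median was -0.71 and the cargo median 0.06, and all 12 mitotic members stayed below 0.

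Genes that couple cargo kinesins to their loads and the opposing motor dynein lay on both sides of control. Of 21 cargo adaptors, 19 were measured, with 11 above 0, 8 below and a median of 0.14. MAPK8IP1, which encodes the scaffold JIP1 that binds kinesin light chains, was listed at 32.6 TPM in metformin and 14.8 in control, a ratio of 2.20 (1.99 to 2.43). FYCO1, an adaptor of late endosomes and autophagosomes, stood at 0.877. Of the 22 dynein and dynactin genes, 11 lay above 0 and 11 below, with a median of 0.02. DYNC1H1, the dynein heavy chain, stood at 1.42 of control and DCTN2, which encodes dynamitin, at 1.39, while NDE1, a dynein regulator with a role in mitosis, stood at 0.734 and the light chain gene DYNLT3 at 0.747.

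**Figure D5:**
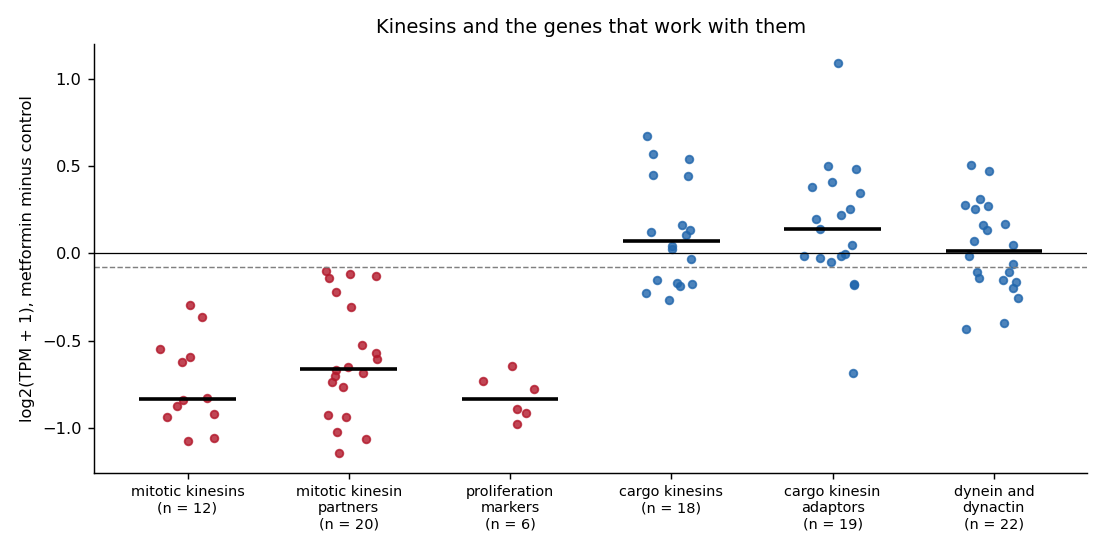
Difference of log2(TPM + 1), metformin minus control, of each measured gene in 6 lists, with list medians as black bars and the median of all measured genes dashed. The lists of mitotic kinesins, their partners and proliferation markers lie wholly below 0, with medians of -0.83, -0.66 and -0.83, while cargo kinesins, cargo adaptors and dynein with dynactin lie on both sides.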

How the data were processed

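RNA of H1299 cells with and without 5 mM metformin was sequenced as 1 library each. Per the labels' protocols, the TruSeq Stranded mRNA LT kit was used and Bowtie2 mapped the reads to hg19; per the submitters' processing notes, Trimmomatic 0.38 and HISAT2 were used with hg19 and GRCh37. The program that made the abundances, and whether it used the strand, are not given in the sources used here. The deposited tables give TPM, FPKM and coverage (mean read depth over exons) per NCBI gene ID, made by the authors and scaled in TPM to 1000000 per library.

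Symbols came from a RefSeq table (GRCh38.p14), which matched 27559 IDs and left 126. Coordinates of genes are those of the tables (hg19); promoter coordinates are GRCh38.p14. Where a gene had several promoter windows, the first listed was used. Depth came from the largest ratio of coverage to FPKM (6.40 Gb in metformin, 5.80 Gb in control), over 202 bases a read pair. Among genes under 1000 bases with 150 to 1000 aligned bases, 202 was the commonest total (17 of 296 in metformin, 7 of 273 in control), a thin basis. Pairs per gene used canonical GENCODE 44 transcript lengths and added up to 107% of all pairs in either library. Intervals are exact (Clopper-Pearson) at 95%, cover counting error only and can be too narrow through PCR duplicates. Differences used a pseudocount of 1 TPM, which understates changes of low genes; ratios are plain. The GC and length trend was a cubic fit over measured genes, of which 93.7% had both values. Steps were checked on simulated counts in Python 3.11.15. The members, classes and partner lists were chosen with earlier results of these data known. All measured members were named, and of the partner lists the ends and the genes tied to a kinesin. Some genes of these lists are not reported here.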

Additional observations from a re-analysis of the deposited data

How the results depend on the processing

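The mitotic median, the cargo median and their difference kept their sign under every alternative run. The mitotic median was -0.74 with a pseudocount of 5 TPM, -0.74 after centring on the median of genes at 10 TPM or more, -0.76 with trimmed mean scaling and -0.71 without the GC and length trend. The number of members lower by 2-fold, 2 in the report, was 1 with a pseudocount of 5, with FPKM and with trimmed mean scaling, and 0 after centring and without the GC and length trend; the cause was not tested. The number lower by 1.5-fold, 10 in the report, was 8 with a pseudocount of 5, with FPKM and after centring. It was also 8 with trimmed mean scaling and without the trend. The number higher by 1.5-fold, 1 in the report, was 3 with a pseudocount of 0.1, 0 with a pseudocount of 5, 4 after centring, 4 with trimmed mean scaling and 0 without the trend. The number higher by 2-fold, 0 in the report, was 1 with a pseudocount of 0.1, where KIF1A, a gene of low level, passed. Without the trend the TPM ratios of KIF3A (1.03), KIF5B (1.002), KIF2A (1.02) and KIF21A (1.03) lay above 1. The requirement of 1 TPM in control was added after the data were seen. No paired analysis was possible because each condition is 1 library. Depth limits members under 1 TPM, whose ratios are not interpreted.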
